A study of Mus musculus with 6 samples.

Results

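Tubulins, kinesins and dyneins are the parts from which a cell builds and uses its microtubules, and their transcripts were compared in LSK-SLAM cells of 2 genotypes, 2T-WT and 2T-p190-B-/-. Members were the non-control array probes whose gene name in the files is a numbered alpha-, beta-, gamma-, delta- or epsilon-tubulin, a gamma-tubulin complex protein (Tubgcp), a kinesin (Kif or Kifc), a kinesin light chain (Klc) or a cytoplasmic dynein chain (Dync or Dynl), together with 10 regulators of the spindle and of microtubule ends: Stmn1, Mapre1, Mapre2, Mapre3, Clasp1, Clasp2, Numa1, Tpx2, Pafah1b1 and Nde1. This rule took 137 probes of 99 genes from 39429 probes. Of these, 96 probes of 77 genes exceeded background clearly on 3 or more of the 6 arrays and were tested, and 22 genes had no tested probe.

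Alpha- and beta-tubulin pair into dimers that polymerise into microtubules, and gamma-tubulin with the Tubgcp proteins forms the ring from which a microtubule grows. Kinesins mostly walk towards the growing plus end and carry vesicles and organelles or push the mitotic spindle apart, whereas cytoplasmic dynein walks towards the minus end and pulls on the spindle from the cell cortex. The position of the spindle relative to cell polarity decides what each daughter cell inherits, so these genes bear on the question of symmetric and asymmetric division of haematopoietic stem cells (HSC) that the study addressed with p190-B.

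p190-B is a GTPase-activating protein encoded by Arhgap5. Fetal liver cells of p190-B-/- embryos or WT littermates (CD45.2+) were transplanted with CD45.1+ competitor marrow into lethally irradiated CD45.1+ mice, and marrow of these primary recipients was passed to irradiated secondary recipients, the 2T mice. The deletion is present in every donor-derived cell, and recipients and competitor cells are wild-type in both groups. The array methods do not state a CD45.2 gate, so the share of wild-type cells in the 2T-p190-B-/- samples is unknown. The study gives the embryonic stage of the donors and the interval between the transplants. The age of the recipient mice is not given in the sources used here. Lin- c-Kit+ Sca-1+ CD150+ CD48- (LSK-SLAM) marrow cells, a population enriched for HSC, gave 3 2T-WT and 3 2T-p190-B-/- RNA samples, each amplified and hybridised in a single colour to an Agilent whole mouse array. The study describes the array samples as cells of independent 2T mice taken on independent occasions, and the labels call them replicates of a genotype without saying which mice or occasion each holds.

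The values are log2 signals relative to each array's 75th percentile, so a value of 0 is a spot as bright as that percentile, a negative value is dimmer, and values of different probes are not compared, apart from the sums over marker lists near the end, in which the brightest probes weigh most. The 75th percentile itself ranged over 53.9 to 227 signal units in 2T-WT and over 252 to 385 in 2T-p190-B-/-, so brightness did not overlap between genotypes, and its part in the differences below was not tested. The member probes well above background numbered 75, 94 and 75 of 137 in the 2T-WT samples, and 108, 72 and 100 in those of 2T-p190-B-/-. The Arhgap5 probe was well above background on 0 of 3 2T-WT and 1 of 3 2T-p190-B-/- arrays, and therefore gave no check of the genotype. Of 9 genes that mark LSK-SLAM cells, 4 (Ly6a, Mecom and Tek among them) were well above background on all 6 arrays and 2 (Slamf1, which encodes CD150, and Procr) on none, while Cd48, which the sort selects against, was above it on all 6.

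No member probe passed the limma test at an adjusted p under 0.05, nor did any of the 25160 probes tested (0.0%). The smallest adjusted p was 0.443 among members and 0.0721 among all probes. At an unadjusted limma p under 0.05, 3 of 96 member probes were higher in 2T-p190-B-/- (3.12%, against 3.18% of all probes) and 9 were lower (9.38%, against 3.39% of all probes). The methods' t-test took 9 of 96 member probes and 1783 of all 25160 at the same unadjusted threshold, and 0 of either after adjustment. With 3 against 3 samples the smallest exact two-sided permutation p for a single gene is 0.1, and each of the 20 genes described below as not overlapping had that value.

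The 3 values of one genotype lay entirely above or below those of the other in 21 member probes. They were higher in 2T-p190-B-/- in 4 (4.17%, against 4.47% of all probes) and lower in 17 (17.7%, against 11.5% of all probes). Over the 77 tested genes the median log2 difference was -0.23, with 31 genes higher and 46 lower, where all 21671 genes tested had -0.35, and 35 of the 77 lay below that median. Lower values thus outnumbered higher ones over all genes tested as well. On the slide that held 2 arrays of each genotype, the same comparison gave a median of -0.40 with 31 genes higher and 46 lower. With slide as a block the differences rest on that slide alone, so the 21 non-overlapping probes could not change direction. Of the 96 tested member probes, 82 kept theirs, those 21 included. The bulk samples cannot tell fewer cells of a type from less RNA per cell.

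**Figure D1:**
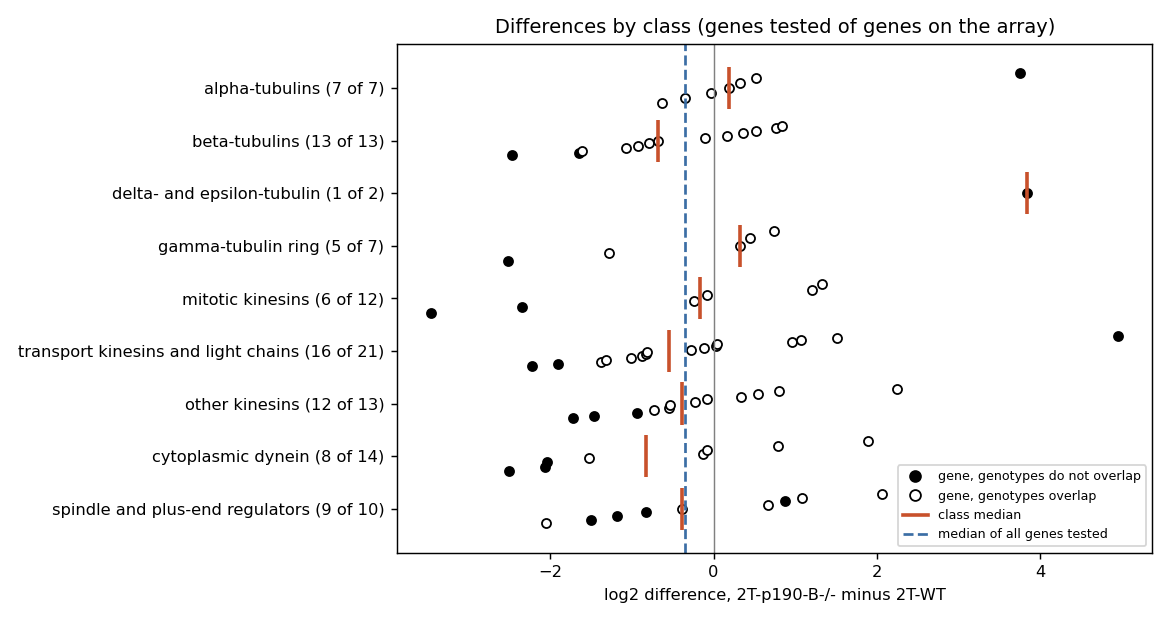
Log2 difference (2T-p190-B-/- minus 2T-WT) of every tested gene by class, 1 point a gene, filled where the genotypes did not overlap. Vertical bars are class medians and the dashed line is the median of all genes tested (-0.35); cytoplasmic dynein had the lowest class median (-0.83), and Tuba4a, Tubd1 and Kif13a lie apart on the right.

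**Figure D2:**
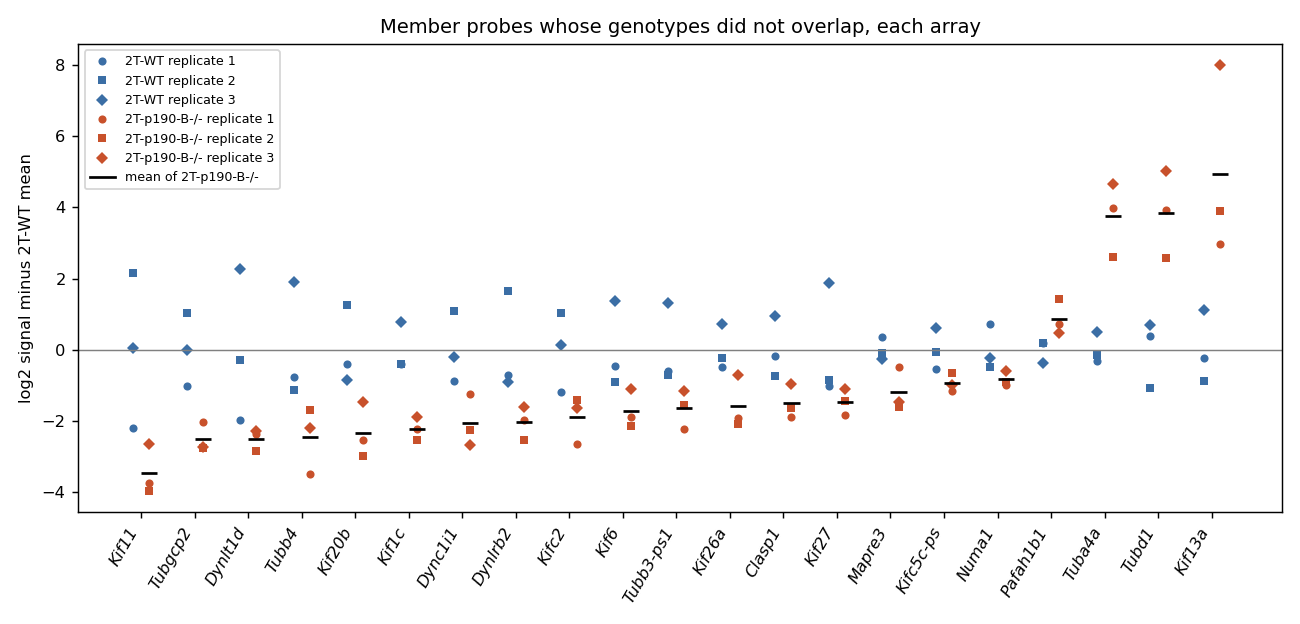
Signal of each array minus the 2T-WT mean (log2) for the 21 member probes whose genotypes did not overlap, ordered by difference. Blue marks are 2T-WT, red marks 2T-p190-B-/-, shapes are replicate numbers and the black bar is the 2T-p190-B-/- mean; Tuba4a, Tubd1, Kif13a and Pafah1b1 sit above the 2T-WT values and the other 17 below.

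Among the 7 alpha-tubulins, all of them tested, Tuba4a stood apart, while the class median was 0.19 with 4 genes higher and 3 lower. Tuba4a, an alpha-tubulin that is abundant in platelets, muscle and brain (probe at mm9 chr1:75212307-75212366, minus strand), had log2 signals of -3.05, -2.88 and -2.23 in 2T-WT and 1.27, -0.10 and 1.94 in 2T-p190-B-/-. All 3 2T-p190-B-/- samples were above the brightest 2T-WT sample, and only 1 of the 3 2T-WT samples was well above background. The difference was 3.76 ± 0.78 (SE, n = 3 and 3), with the smallest adjusted p of any member (limma, 0.443), and 1.80 with normexp background correction, which adds an offset and shrinks dim signals. The other alpha-tubulins overlapped between genotypes. Tuba1a and Tuba1b gave -0.64 ± 1.20 and 0.51 ± 0.75 on their brightest probes. The Tuba1b value was 0.0050 without 2T-p190-B-/- replicate 2, and the second Tuba1b probe gave -0.72 ± 0.91. In Tuba1a the direction rested on 1 sample, since 2T-WT replicate 1 had 0.41 and the other 5 samples -3.96 to -2.89, and the difference was 0.81 without it.

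Of 13 beta-tubulin genes and pseudogenes, 5 were higher and 8 lower with a median of -0.68, and 2 did not overlap, both lower. Tubb4, now named Tubb4a, is the beta-tubulin of neurons and oligodendrocytes (chr17:57220455-57220514, minus strand). It had log2 signals of 3.48, 3.13 and 6.17 in 2T-WT and 0.77, 2.55 and 2.07 in 2T-p190-B-/-. All 6 samples were well above background and the 2T-WT group was spread over a wider range, with replicate 3 far above the other two. The difference was -2.46 ± 0.99 (limma, adjusted p = 0.637), and -1.51 without that replicate. Tubb3, the beta-tubulin used as a marker of neurons, had 3.01, 1.64 and 3.87 in 2T-WT and 0.70, 1.1 and 1.90 in 2T-p190-B-/-, a difference of -1.61 ± 0.82 in which 1 2T-WT sample lay inside the range of the other genotype. The pseudogene Tubb3-ps1 gave nearly the same values, 2.30, 2.19 and 4.22 against 0.68, 1.35 and 1.75, with a difference of -1.64 ± 0.81 and no overlap, or -0.98 without 2T-WT replicate 3.

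The probes of Tubb3 (chr8:125945850-125945909) and Tubb3-ps1 (chr6:136350102-136350161) are shown because they are near copies of each other, and whether each spot read only its own transcript was not tested. Aligned over their 60 bases they differ by 12 edits, and their values over the 6 arrays had a correlation of 0.93. The stretch below holds 30 aligned bases, of which 27 are identical and capitals mark those that differ.
Tubb3: ttgtgtttatattCggggGGaggggtatac
Tubb3-ps1: ttgtgtttatattTggggTTaggggtatac

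Delta-tubulin, a tubulin of the centriole, was measured by Tubd1 (chr11:86380802-86380861, plus strand). Its probe was well above background on none of the 2T-WT samples and on all 3 2T-p190-B-/- samples. The log2 signals were -4.76, -6.23 and -4.44 in 2T-WT and -1.21, -2.57 and -0.12 in 2T-p190-B-/-, where replicate 2 lay closest to the -2.99 that stands for the limit of detection in 2T-WT. Since the 2T-WT signal was not well above background, the difference of 3.84 ± 0.89 (limma, adjusted p = 0.528) is given as a bound, at least 3.22-fold higher in 2T-p190-B-/- (2.14-fold without replicate 3), set against the dimmest probes still well above background on each array. Tubd1 passed the filter only through the 2T-p190-B-/- samples, and with normexp background correction its difference was 0.26. Tube1, the epsilon-tubulin, was not tested.

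In the gamma-tubulin ring, 5 of 7 genes were tested, 3 higher and 2 lower, and Tubgcp2 alone did not overlap. Tubgcp2, a core subunit of the small gamma-tubulin complex (chr7:147185141-147185200, minus strand), had -1.78, 0.26 and -0.76 in 2T-WT and -2.80, -3.53 and -3.48 in 2T-p190-B-/-. All 3 2T-p190-B-/- samples lay below the dimmest 2T-WT sample and close to one another, and 2 of them were well above background. The difference was -2.51 ± 0.77 (limma, adjusted p = 0.637). Tubg1, the gamma-tubulin of most cells, overlapped at -1.28 ± 0.90, and gave -0.65 without 2T-WT replicate 3, -1.97 without 2T-WT replicate 2 and -0.55 with normexp background correction. Tubgcp6 gave 0.74 ± 1.22 and 0.06 ± 0.81 on 2 probes, the first resting on 2T-p190-B-/- replicate 2 at 3.45, without which it was -0.69. Tubgcp3 and Tubgcp5 were not tested.

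Mitotic kinesins build, slide and divide the spindle, and 6 of the 12 on the array were tested. Kif11 and Kif20b were lower without overlap, while the other 4 overlapped and the class median was -0.16. Kif11 encodes Eg5, the motor that pushes the spindle poles apart (chr19:37495755-37495814, plus strand). It had log2 signals of -0.86, 3.48 and 1.37 in 2T-WT and -2.42, -2.64 and -1.31 in 2T-p190-B-/-. Every sample was well above background, the 2T-p190-B-/- samples were close together, and the 2T-WT samples ranged widely with replicate 2 at the top. The difference was -3.46 ± 1.12, the most negative of all tested members (limma, adjusted p = 0.637). Kif20b, a kinesin of cytokinesis (chr19:35050047-35050106, plus strand), had -2.27, -0.63 and -2.73 in 2T-WT and -4.43, -4.87 and -3.36 in 2T-p190-B-/-, a difference of -2.34 ± 0.83. Its probe was dim and stood well above background in 1 2T-WT and 2 2T-p190-B-/- samples.

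Kif20a, a kinesin of the central spindle, went the other way, with -0.17, -1.58 and -0.48 in 2T-WT and -0.51, 0.61 and 1.28 in 2T-p190-B-/-, and overlapped at 1.21 ± 0.79, or 0.79 without 2T-WT replicate 2 and 0.80 without 2T-p190-B-/- replicate 3. Kif18b and Kif2c, which shorten microtubules at their plus ends, and Kif4, a chromosome-bound motor, gave -0.24 ± 1.00, -0.09 ± 0.82 and 1.33 ± 1.49. The highest Kif4 sample was 2T-p190-B-/- replicate 3 at 4.61, against -1.43 and 0.43 in the other two. Kif14, Kif15, Kif18a, Kif22, Kif23 and Kifc1 were not tested.

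Promoters of mitotic kinesins are known to share an element of cell cycle genes, TTTGAA, that represses them outside division, often next to a CCAAT box. Searched on both strands in 250 bases before to 50 bases after each start (RefSeq, GRCm38.p6), TTTGAA was present in 10 of 11 promoters of mitotic kinesins, in 20.0% of 80 member promoters and in 17.9% of 32851 promoters overall. CCAAT was present in 7 of the 11 and in 37.4% overall. Kif20a, the remaining gene of this class, had no promoter in the set searched. The windows of the 2 genes without overlap, Kif11 and Kif20b, and of 2 that overlapped, Kif18b and Kif4, are shown since all 4 hold the element although their differences were unlike. Each runs from 100 bases before to 25 bases after the start, and capitals mark both motifs on either strand.
Kif11 (chr19:37376282-37376406, plus strand): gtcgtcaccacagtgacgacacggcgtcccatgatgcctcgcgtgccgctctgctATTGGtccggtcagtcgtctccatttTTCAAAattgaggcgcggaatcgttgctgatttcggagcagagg
Kif20b (chr19:34922258-34922382, plus strand): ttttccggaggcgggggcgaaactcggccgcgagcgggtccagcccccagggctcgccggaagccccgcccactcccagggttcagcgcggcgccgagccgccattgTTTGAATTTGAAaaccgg
Kif18b (chr11:102925100-102925224, minus strand): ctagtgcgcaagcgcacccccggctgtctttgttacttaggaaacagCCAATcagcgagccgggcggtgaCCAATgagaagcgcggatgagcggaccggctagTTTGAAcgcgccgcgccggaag
Kif4 (chrX:100625965-100626089, plus strand): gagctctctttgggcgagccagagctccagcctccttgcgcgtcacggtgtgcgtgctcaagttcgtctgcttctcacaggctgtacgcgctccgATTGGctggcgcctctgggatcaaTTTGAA

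**Figure D3:**
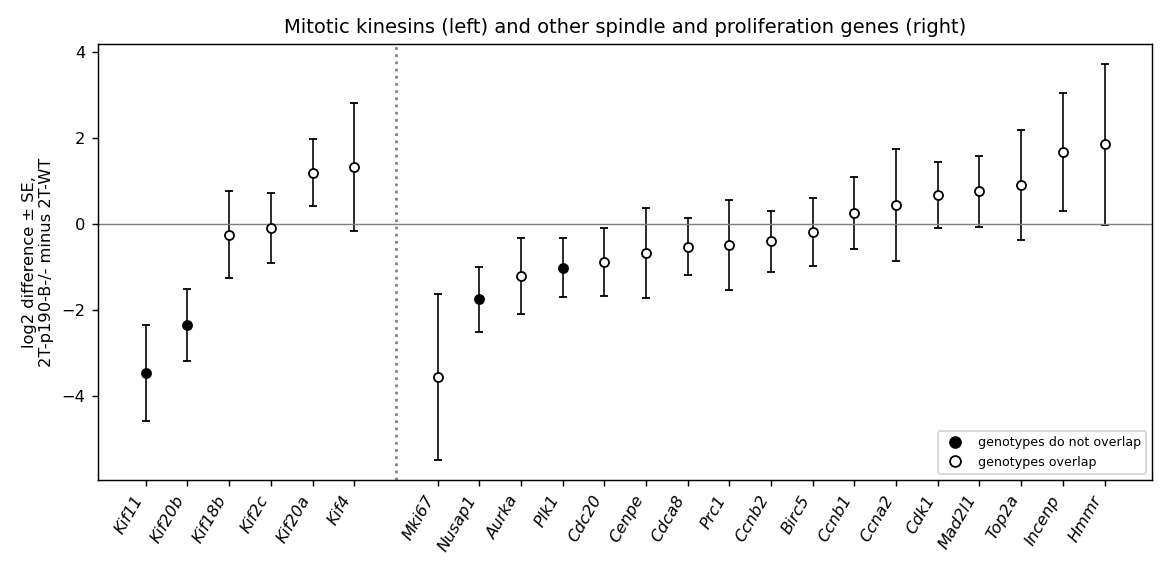
Log2 difference ± SE (n = 3 and 3) of the 6 tested mitotic kinesins, left of the dotted line, and of 17 other spindle and proliferation genes, right of it, filled where the genotypes did not overlap. Kif11 and Kif20b are filled on the left and Nusap1 and Plk1 on the right, and both sides hold genes above and below 0.

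The 17 tested genes of a list of 20 other spindle and proliferation genes were 7 higher and 10 lower in 2T-p190-B-/-, with a median of -0.40 and no probe at an unadjusted limma p under 0.05. Nusap1, a spindle-binding protein, and Plk1, a mitotic kinase, did not overlap at -1.75 ± 0.76 and -1.01 ± 0.69. Mki67, the proliferation marker, had 2.59, -1.96 and 6.87 in 2T-WT and -1.98, -0.33 and -0.86 in 2T-p190-B-/-, a spread within 2T-WT wider than the -3.56 between genotypes. Cdk1 and Ccnb1, the kinase and cyclin that start mitosis, gave 0.68 ± 0.76 and 0.26 ± 0.84.

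Transport kinesins and their light chains carry vesicles, organelles and ciliary cargo, and 16 of 21 were tested, 6 higher and 10 lower with a median of -0.54. Kif13a, which moves endosomal and Golgi-derived vesicles (chr13:46844542-46844601, minus strand), was higher in 2T-p190-B-/- without overlap. Its log2 signals were -4.11, -4.75 and -2.74 in 2T-WT and -0.91, 0.04 and 4.13 in 2T-p190-B-/-. No 2T-WT sample and all 3 2T-p190-B-/- samples were well above background, and replicate 3 was far above the other 2T-p190-B-/- samples. The difference of 4.95 ± 1.32 (limma, adjusted p = 0.637) is therefore a bound, at least 16.9-fold higher in 2T-p190-B-/- and at least 5.87-fold without that replicate, and Kif13a passed the filter only through that genotype. Its difference was 2.07 with normexp background correction.

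Kif1c, a carrier of dense-core vesicles and integrins, and Kifc2, a minus-end motor, were lower without overlap. The brightest Kif1c probe (chr11:70545344-70545403) had 5.74, 5.73 and 6.92 in 2T-WT and 3.88, 3.60 and 4.23 in 2T-p190-B-/-, with both groups tight and well separated and a difference of -2.22 ± 0.70 (limma, adjusted p = 0.637), or -1.29 with quantile normalization. The other 2 Kif1c probes lie upstream on the plus strand, at chr11:70543754-70543813 and over chr11:70539988-70541746, and overlapped at -0.69 ± 0.78 and 0.72 ± 0.74. Kifc2 had -2.75, -0.53 and -1.42 in 2T-WT and -4.23, -2.97 and -3.22 in 2T-p190-B-/-, a difference of -1.90 ± 0.82, and was well above background in 2 samples of each genotype. The conventional kinesin heavy chains Kif5b and Kif5c, the light chain Klc2 and the axonal motors Kif1a and Kif1b were not tested.

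The remaining kinesins, of which 12 of 13 were tested, were 4 higher and 8 lower with a median of -0.38. On their brightest probes 3 of them, Kif6, Kif27 and Kifc5c-ps, were lower without overlap, and none reached an unadjusted limma p under 0.05. Kif27, a relative of the Hedgehog regulator Kif7, had -2.35, -2.20 and 0.56 against -3.17, -2.76 and -2.43, a difference of -1.46 ± 0.93, or -0.51 without 2T-WT replicate 3. The pseudogene Kifc5c-ps gave -0.94 ± 0.68, with all 6 samples well above background.

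Kif6, a kinesin expressed in brain and ciliated tissue, was read by 3 probes that pointed in opposite directions. The brightest (chr17:50049101-50049160) had 5.41, 4.97 and 7.23 in 2T-WT and 3.97, 3.72 and 4.76 in 2T-p190-B-/-, a difference of -1.72 ± 0.83 with no overlap, or -1.03 without 2T-WT replicate 3 and -0.69 with quantile normalization. The other 2, upstream of it on the plus strand, gave 3.25 ± 2.48 and 2.15 ± 2.58. Both owed their values to 2T-p190-B-/- replicate 3, at 5.79 and 5.96, where the other 5 samples lay between -5.51 and -1.38. These 2 upstream probes are shown because they share a run of 47 bases and so measured nearly the same stretch, with a correlation of 0.983 over the 6 arrays. The lines give the last 30 bases of each, in lower case where shared and in capitals where the probe goes on alone, into the adjoining genomic bases for the first and across a splice for the second.
Kif6 (chr17:49894515-49894574): gagggacaacgagatcaGTATCCTTTCTCG
Kif6 (chr17:49894503-49897747): tcttctcaagcagagggacaacgagatcaA

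Cytoplasmic dynein had the lowest class median, -0.83, over 8 tested genes of 14, of which 2 were higher and 6 lower. The chains Dync1i1, Dynlrb2 and Dynlt1d did not overlap, all lower, and all reached an unadjusted limma p under 0.05. Dync1i1, an intermediate chain that binds dynactin and cargo (chr6:5977935-5977994, plus strand), had -1.27, 0.68 and -0.60 in 2T-WT and -1.64, -2.66 and -3.07 in 2T-p190-B-/-, a difference of -2.06 ± 0.80. All 6 samples were well above background, and the lowest 2T-WT sample was close to the highest 2T-p190-B-/- sample. Another Dync1i1 probe, close by on the same transcript, was well above background on only 1 array of each genotype and was not tested. Its values overlapped between genotypes and had a correlation of 0.906 with the tested probe. Dynlrb2, a roadblock light chain found with cilia (chr8:119039711-119039770, plus strand), had -2.30, 0.06 and -2.51 against -3.56, -4.13 and -3.18, a difference of -2.04 ± 0.88, or -1.22 without 2T-WT replicate 2, on a probe well above background in 2 samples of each genotype.

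Dynlt1d is a Tctex-type light chain (chr17:6817547-6817606) whose probe the RefSeq table assigns by accession to Dynlt1c, and the mouse copies of this gene are nearly identical, so the source of its signal is uncertain. It had -2.26, -0.58 and 2.00 in 2T-WT and -2.65, -3.12 and -2.57 in 2T-p190-B-/-, a difference of -2.50 ± 1.08, or -1.36 without 2T-WT replicate 3. The 2T-p190-B-/- samples were close together just below the lowest 2T-WT sample. The tested probe named Dynlt1c in the files pointed the other way at 1.89 ± 1.31. Dync1h1, the heavy chain that holds the motor, was not tested, and neither were Dync1li1, Dync1li2, Dync2h1, Dync2li1 and Dynlt3, so the motor subunits themselves have no value here.

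Genes outside the rule that work with dynein were measured beside it. Of 17 listed as partners, 15 were dynactin subunits and cargo adaptors, and the other two, the dynein regulator Ndel1 and Kifap3, which belongs to kinesin-2, were not tested. Of the 15, 11 were tested, 7 higher and 4 lower with a median of 0.18, and Dctn1, the dynactin subunit that binds microtubules, did not overlap at 1.58 ± 0.86. None of the 11 reached an unadjusted limma p under 0.05.

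The spindle and plus-end regulators were 4 higher and 5 lower over 9 tested genes, with a median of -0.38. Pafah1b1, which encodes the dynein regulator Lis1 (chr11:74487683-74487742, minus strand), had -1.09, -1.08 and -1.63 in 2T-WT and -0.55, 0.16 and -0.79 in 2T-p190-B-/-. All 6 samples were well above background, and the groups lay apart by a narrow margin, with a difference of 0.87 ± 0.67 (limma, adjusted p = 0.674), or 0.17 with normexp background correction. Its 2 other probes were well above background on no array. Nde1, a partner of Lis1, gave 0.67 ± 0.80 on its brightest probe (0.18 without 2T-WT replicate 2 and 1.33 without 2T-WT replicate 3) and -1.22 ± 0.84 on another.

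Clasp1, Mapre3 and Numa1 were lower without overlap. Clasp1, which stabilises growing microtubule ends (chr1:120505943-120506002, plus strand), had 3.03, 2.47 and 4.16 in 2T-WT and 1.33, 1.57 and 2.25 in 2T-p190-B-/-, a difference of -1.50 ± 0.75. Mapre3, the end-binding protein EB3, had 0.51, 0.04 and -0.14 against -0.36, -1.46 and -1.33, a difference of -1.19 ± 0.69. Numa1, which anchors dynein at the cortex to position the spindle (chr7:109163380-109163439, plus strand), had 1.80, 0.58 and 0.84 against 0.08, 0.16 and 0.49, a difference of -0.83 ± 0.69. All 3 probes were well above background on all 6 arrays, and for Numa1 the lowest 2T-WT and highest 2T-p190-B-/- samples nearly met. With normexp background correction Clasp1 gave -0.69 and Numa1 -0.29, and Numa1 gave -0.47 without 2T-WT replicate 1.

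The other regulators overlapped. Mapre1, the end-binding protein EB1, had -0.54, -3.44 and -1.69 in 2T-WT and -4.81, -2.62 and -4.41 in 2T-p190-B-/-, a difference of -2.05 ± 0.98. Clasp2 gave 2.07 ± 1.70 although 1 2T-WT sample, at 2.09, was the highest of all 6, and it ranged from 0.85 without 2T-WT replicate 1 to 4.31 without 2T-WT replicate 2. Tpx2, an activator of Aurora A at the spindle, gave 1.08 ± 0.78 and Stmn1, which sequesters tubulin dimers, gave -0.38 ± 1.23, both on dim probes well above background in 3 samples. Mapre2 was not tested.

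Agreement between probes of a gene was limited. Of 16 genes with several tested probes, 12 had probes of opposite sign. Besides Kif6 and Kif1c, Kif26a had a dimmer probe lower without overlap at -1.58 ± 0.75 and a brighter one at 0.33 ± 1.04. Kif9, a kinesin of the sperm tail and cilia, gave 2.24 ± 1.31 on its brightest probe (1.23 without 2T-WT replicate 3 and 3.41 without 2T-p190-B-/- replicate 2) and -1.21 ± 1.00 and -2.19 ± 1.37 on 2 others. The SE of a member difference ranged from 0.67 to 3.14 with a median of 0.87, so opposite signs often lay within the error of both probes.

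**Figure D4:**
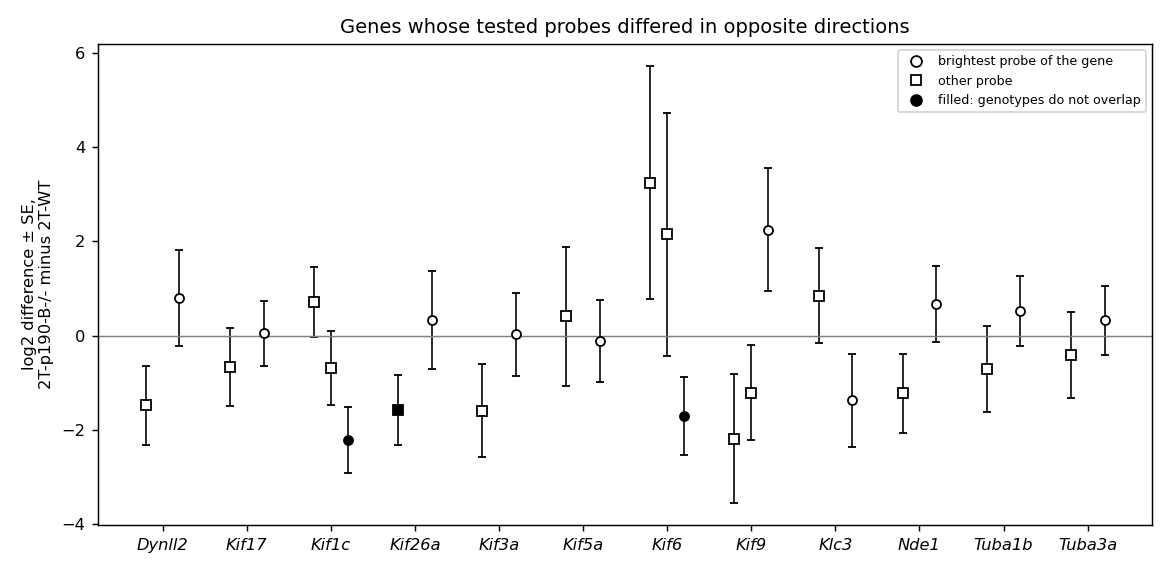
Log2 difference ± SE (n = 3 and 3) of every tested probe of the 12 member genes whose probes differed in sign, dimmest probe left and brightest (circle) right within a gene. Filled marks did not overlap between genotypes; the probes of Kif6, Kif9 and Kif1c lie furthest apart, and most bars cross or approach 0.

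Enzymes that fold and modify tubulin and proteins that bind or sever microtubules were measured beside the members. Of 18 folding and modification genes, 12 were tested, 3 higher and 9 lower with a median of -0.42. Ttl, the ligase that restores the terminal tyrosine of alpha-tubulin, did not overlap at -1.87 ± 0.77 (limma, adjusted p = 0.637), nor did the folding cofactor Tbcc at -1.57 ± 0.84. Of 21 binding and severing genes, 11 were tested, 3 higher and 8 lower with a median of -0.34, and among them Mapt (tau) did not overlap at -1.14 ± 0.74. Each of these medians was close to the -0.35 of all genes.

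Some members are best known from neurons or ciliated cells, and the markers of such cells were partly present. Of 6 markers, Tubb3 and Snap25 were well above background on all 6 arrays, and Foxj1, which defines multiciliated cells, on none. Linear signals, relative to the 75th percentile, were summed over only the tested genes of each marker list. For the 5 tested here the sum was 724 to 4098 in 2T-WT and 466 to 710 in 2T-p190-B-/-. Snap25, the brightest probe of this list, made up most of that sum. It had log2 signals of 10.61, 9.49 and 12.00 against 8.86, 8.93 and 9.46, a difference of -1.62 ± 0.82 without overlap. The other tested markers overlapped, Tubb3, itself a member, at -1.61 ± 0.82 and Dnah5 at -1.41 ± 0.99. Syn1 gave -0.37 ± 0.90, and Rsph1 was higher at 0.99 ± 0.77. Of 8 B lymphocyte markers 4 were well above background on all 6 arrays. The sum over the 7 tested was 5.95 to 725 in 2T-WT and 4.96 to 7.0 in 2T-p190-B-/-. Cd79a in 2T-WT replicate 3 set the upper end of 2T-WT. For 9 neutrophil markers, 7 tested, 2 on all arrays and S100a9 on none, the sums were 3.87 to 9.52 and 2.84 to 4.93. For 6 T lymphocyte markers, 5 tested and 4 on all arrays, they were 40.2 to 139 and 30.3 to 54.1. Cd4, the brightest probe of that list, made up most of these sums and overlapped at -1.20 ± 0.79. Of the 5, 1 was higher and 4 lower, all with overlap. For 6 red cell markers, 3 tested, 2 on all arrays and Hbb-b1 on none, the sums were 0.860 to 2.37 and 1.74 to 2.50. Of 6 megakaryocyte markers only Itga2b and Vwf were tested, both on all arrays, and their sums were 2.15 to 19.2 and 4.22 to 5.73. The part of these cells in the differences of the members was not tested.

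2T-WT replicate 3 was the dimmest array and held the highest 2T-WT value in 9 of the 17 lower non-overlapping probes. Without it, 22 of 96 member probes did not overlap and were lower (16.2% of all probes) and 7 were higher (7.91% of all probes), 10 had an unadjusted limma p under 0.05 (5.98% of all probes), and the median over genes was -0.18.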

How the data were processed

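RNA of 6 samples (3 2T-WT, 3 2T-p190-B-/-, grouped by their labels) was read with Agilent Feature Extraction 10.5.1.1. Per the file headers, the deposited value of a spot is a background-corrected linear intensity without scaling across arrays. A second table deposited by the authors holds this intensity after division by a single number for each array. Probe coordinates are mm9. Exon and UTR positions of probes were not analysed here.

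Control and outlier spots (296 to 509 an array) were left out, and 0 spots were saturated. The log2 of each processed intensity, minus that of the 75th percentile of its array, was averaged for probes spotted repeatedly. The 25160 probes flagged as well above background by the software on 3 or more of 6 arrays were tested with limma 3.58.1 (R 4.3.3) and no covariates, and p-values were adjusted over them by Benjamini and Hochberg's method. The same values also went into the methods' t-test. The number of arrays limits the precision. Between 47.9% and 72.7% of spots were well above background on an array.

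Of 39429 probes, 26412 were named by accession and 4589 by gene name through RefSeq (GRCm38.p6), and 8428 kept the file's name. A gene is represented by its tested probe with the highest mean signal. Named genes are Dync1h1, Kif11, Tubg1 and the 10 regulators, the 3 with the smallest p in each class, genes without overlap and at least 2-fold different, and genes whose probes oppose with 1 such probe, together with untested members by name. Values of Kif18b, Kif2c, Kif4, Dynlt1c and Kifc5c-ps, and of genes outside the rule, were chosen after they were seen. A fold against a group not well above background is a bound: the mean of the brighter group against, per array, the higher of the probe's own value and the dimmest value well above background.

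Slide 1 held 2T-WT replicate 1, slide 2 held 2 samples of each genotype, and slide 3 held 2T-p190-B-/- replicate 3. The alternatives were normexp background correction with an offset of 50, quantile normalization, array median scaling, no filter or a filter on all 6 arrays, the authors' values, slide or replicate number as a block, a variance trend, each sample left out, the t-test, and the mean over a gene's probes. The members and lists were chosen with earlier results of these data known.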

Additional observations from a re-analysis of the deposited data

How the results depend on the processing

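No member probe reached an adjusted limma p under 0.05 under any alternative run, nor did any other probe, and the smallest adjusted p of all probes was 0.0527 with quantile normalization. The median difference of all probes, -0.33 with 60.8% of probes lower, was -0.10 (54.0%) with quantile normalization, -0.18 (55.6%) with array median scaling, -0.21 (56.8%) in the authors' values, -0.47 (69.2%) with normexp and -0.55 (66.6%) without a filter. The median over member genes was -0.23, -0.50 with normexp, -0.0175 with quantile normalization, -0.40 with slide as a block, and -0.47 to -0.18 with a sample left out. Non-overlapping probes higher in 2T-p190-B-/- numbered 4, then 2 with normexp, 1 with probes above background on all 6 arrays, and 5 to 11 with a sample left out, since 3 against 2 samples part more easily. Those lower numbered 17, then 10 with probes above background on all 6 arrays and 21 to 25 with a sample left out. The shares of all probes without overlap were counted only for the main fit and without 2T-WT replicate 3. Member probes at an unadjusted limma p under 0.05 numbered 12 of 96, against 1654 of all 25160. With probes above background on all 6 arrays they were 4 of 51, against 995 of 13751. With a sample left out they were 7 to 14, the fewest without 2T-p190-B-/- replicate 1, against 1068 to 2443 of all probes.

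Of 497 alternative values of the 32 named genes, 483 kept their direction and 14 reversed it, and 22 genes never reversed. Many of these values could not reverse, so the counts do not measure stability. The filters, the variance trend and the replicate block leave a difference unchanged. Genes without overlap cannot reverse with a sample left out or with slide as a block. Clasp2 (-0.47) and Tpx2 (-0.47) reversed with normexp. Tuba1a reversed with slide as a block (0.85), and with a sample left out ranged from -1.38 to 0.81, the latter without 2T-WT replicate 1. Kif26a ranged from -0.55 to 0.84, below 0 without 2T-WT replicate 3 (-0.43) or 2T-p190-B-/- replicate 1, and gave -0.62 as the mean over its probes. Stmn1 ranged from -1.56 to 0.60, above 0 without 2T-WT replicate 3 or 2T-p190-B-/- replicate 2 (0.07), and Tubgcp6 from -0.69, without that replicate, to 1.57. As means over their probes, Kif6 (1.23), Kif9 (-0.39), Nde1 (-0.28) and Tuba1b (-0.10) reversed. The cause was not tested, except that means over probes differ by their construction.

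Samples of the same replicate number showed little common deviation (correlations of 0.01, 0.02 and 0.09, against -0.075 to 0.067 for unlike numbers). Such values cannot show whether samples were collected together, so a pairing remains unknown. With a replicate block, 11 member probes fell below 0.05 in limma before adjustment and 0 after it. Each replicate number holds a sample of both genotypes, so this block could not change the direction of any named gene.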
